A study of Mus musculus with 6 samples.

Results

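The 10 genes described here mark the cells that line the blood vessels of the liver. They were chosen by name from the 34745 genes of the deposited table, and each name matched 1 row. Stab1, Stab2, Lyve1, Clec4g, Kdr and Pecam1 are the 6 sinusoidal genes. Wnt2, Wnt9b, Rspo3 and Vwf are the 4 central vein and Wnt-source genes. Liver RNA of WT mice was measured by bulk RNA-Seq. The mice were fasted for 12 hours and then given 1 intraperitoneal injection of acetaminophen (APAP, 300 mg/kg, sampled at 12 hours) or of saline. The Methods name male C57BL/6J mice of 8 to 10 weeks. The series holds 3 liver samples per group, and 5 libraries were analysed here, which are APAP replicates 1 and 3 and 3 libraries named WT1, WT2 and WT3. No column name says saline, and WT1 to WT3 were taken as that group since the remaining count columns carry the name of APAP, while APAP replicate 2 was not analysed here.

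Liver sinusoids are lined by fenestrated endothelial cells that clear waste molecules from portal blood through scavenger receptors and lectins. Endothelial cells of the central vein and of the sinusoids next to it secrete Wnt ligands and R-spondin 3. Wnt ligands bind Frizzled receptors and LRP co-receptors on nearby hepatocytes and stabilize β-catenin, and R-spondins bind LGR receptors and keep Frizzled receptors on the cell surface. This signal maintains the centrilobular program of hepatocytes, which includes enzymes that turn APAP into a reactive metabolite, and centrilobular hepatocytes are the cells that die after an overdose.

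Each library held between 13378445 and 15976339 counts. Levels are given as CPM, counts scaled to library size with TMM factors, and 3 counts in a library, taken as the floor of detection, lie between 0.176 and 0.269 CPM. The 16 endothelial junction and surface genes read as a check of the label had at least 20 counts each in every library. Sex-linked genes differed between the groups. The X-inactivation transcript Xist had 0.764 and 1.73 CPM after APAP and 289.6 to 914 CPM after saline, while Ddx3y, a gene of the Y chromosome, had 79.0 and 61.7 CPM after APAP and had at most 1 count in a saline library. Treatment and sex-linked expression therefore cannot be told apart in any value below, although the Methods name males. No label says that the libraries are of separate mice, so that p-values measure the spread between these libraries.

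Of the 10 genes, Wnt2 alone passed the test between APAP and saline, and it fell by 3.57 on the log2 scale. The other Wnt-source genes Wnt9b and Rspo3 were also lower in both APAP libraries than in every saline library, but neither passed the test. None of the 6 sinusoidal genes passed it, and their summed level was 145 and 192 CPM with APAP and 169.9, 195 and 132 CPM with saline. The APAP mean of that sum was 1.02 times the saline mean. The median log2 fold change was 0.12 for the sinusoidal genes and −1.45 for the central vein and Wnt-source genes, against 0.03 for all 13734 genes tested. The count of 1 gene in 10 with an adjusted p under 0.05 (edgeR's quasi-likelihood test, Benjamini-Hochberg adjusted) stands against a background of 7.23% of all genes tested (3.70% higher and 3.53% lower). For 4 of the 10 genes every APAP library lay on 1 side of every saline library, against a background of 44.1% (24.0% higher and 20.1% lower), with Lyve1 higher and Wnt2, Wnt9b and Rspo3 lower. The study names a 1.5-fold change and P under 0.05 and does not say whether P was adjusted. Read as an unadjusted P, 3 of the 10 genes were called (background 23.5%, with 12.3% higher and 11.2% lower), which were Wnt2 and Wnt9b in the lower and Lyve1 in the higher direction.

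**Figure D1:**
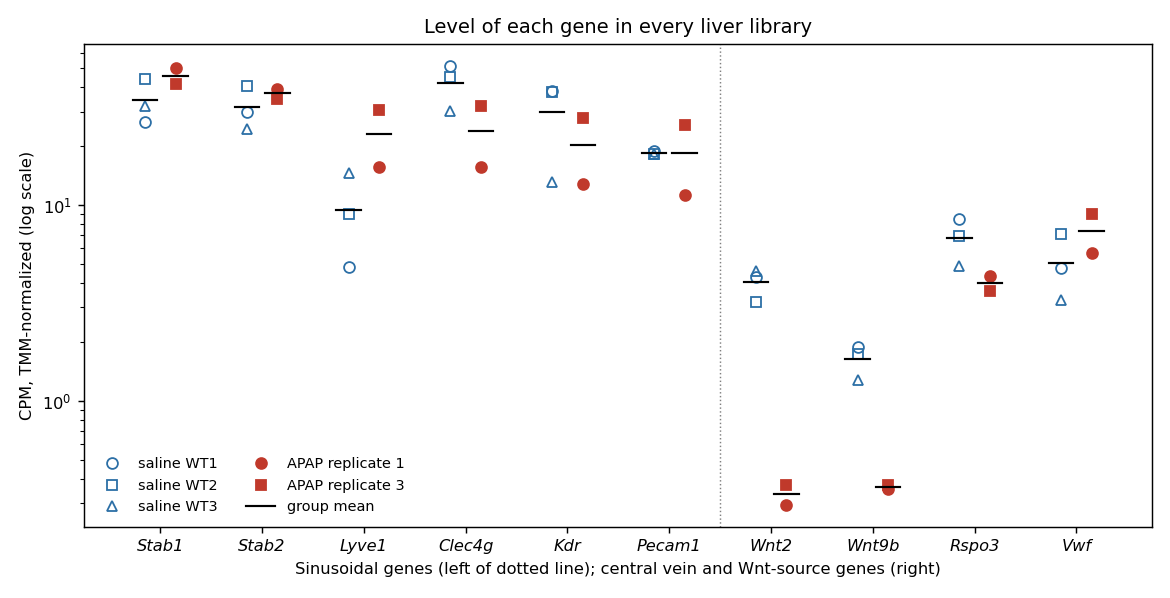
Level of the 10 genes in each liver library, in TMM-normalized CPM on a log axis, with open blue symbols for the 3 saline libraries, filled red symbols for the 2 APAP libraries and a bar for each group mean. Wnt2 and Wnt9b lie between 0.294 and 0.371 CPM in the APAP libraries and between 1.27 and 4.61 CPM in the saline libraries, while the 6 sinusoidal genes lie between 4.84 and 51.4 CPM in every library.

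Wnt2 (ENSMUSG00000010797, chromosome 6 of GRCm38, 17988940 to 18030585, minus strand, 5 exons) encodes a secreted Wnt ligand of sinusoidal and central vein endothelium. It had 5 and 6 counts in APAP replicates 1 and 3 and 48, 48 and 69 counts in WT1, WT2 and WT3. On the normalized scale these were 0.294 and 0.371 CPM with APAP and 4.30, 3.19 and 4.61 CPM with saline. Both APAP libraries lay far below the lowest saline library, and the APAP mean was 8.24% of the saline mean. The saline mean would have given 68.6 and 65.3 counts at the depth of the APAP libraries. The exact Poisson 95% interval, which covers counting error only, reached 11.7 and 13.1 counts in the APAP libraries and began at 35.4 counts in WT1 and WT2. This is a log2 fold change of −3.57 with a standard error of 0.49 (adjusted p = 0.0118 by edgeR's quasi-likelihood test, Benjamini-Hochberg adjusted), or 11.9-fold lower with a 95% interval of 5.29-fold to 26.6-fold. Of the genes tested, 0.692% had a lower log2 fold change. Among the 3044 tested genes whose saline mean was within 2-fold of that of Wnt2, 37 (1.22%) were called lower. When APAP replicate 1 was left out, Wnt2 had a log2 fold change of −3.41 and an adjusted p of 0.0831, and without WT2 they were −3.72 and 0.0512, so that the call, but not the direction, rested on these libraries.

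Wnt9b (ENSMUSG00000018486, chromosome 11, 103727364 to 103749821, minus strand, 4 exons) encodes a second Wnt ligand of the central vein endothelium. It had 6 counts in each APAP library and 21, 26 and 19 counts in WT1, WT2 and WT3, or 0.353 and 0.371 CPM against 1.88, 1.73 and 1.27 CPM. The groups did not overlap, and the mean after APAP was 22.2% of that after saline. The log2 fold change was −2.14 (standard error 0.57, 95% interval −3.49 to −0.79, adjusted p = 0.0722 from the same test). With edgeR's likelihood ratio test, edgeR's exact test and DESeq2 the adjusted p of Wnt9b was 0.00987, 0.0134 and 0.0252, so that its call depends on the test. These counts are small, and the Poisson interval of 6 counts reaches from 2.20 to 13.1.

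Wnt2 and Wnt9b were the genes with the lowest fold changes of the 10, and the bases before their starts are shown with those of Stab1 and Clec4g, sinusoidal genes that did not pass the test. The sequences are those of RefSeq (GRCm38.p6), which gave a promoter for 6 of the 10 genes. Each is written 5′ to 3′ on the minus strand, on which the gene lies. Bases that GENCODE places in an exon of the gene are left out, which shortens Wnt2 to 110 bases, and the other 3 have 250 bases. Capitals mark matches to AGGAAG (a form of the site bound by ETS factors), CCAAT or TATAAA on either strand.
Wnt2, chr6:18030586-18030695: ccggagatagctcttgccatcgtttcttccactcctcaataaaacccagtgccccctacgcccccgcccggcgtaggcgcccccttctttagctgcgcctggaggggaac
Wnt9b, chr11:103749822-103750071: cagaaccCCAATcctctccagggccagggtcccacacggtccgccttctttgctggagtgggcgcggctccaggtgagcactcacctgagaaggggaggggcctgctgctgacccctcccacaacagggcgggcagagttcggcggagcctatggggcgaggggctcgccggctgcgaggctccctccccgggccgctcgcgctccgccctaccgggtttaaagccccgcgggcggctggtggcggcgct
Stab1, chr14:31168642-31168891: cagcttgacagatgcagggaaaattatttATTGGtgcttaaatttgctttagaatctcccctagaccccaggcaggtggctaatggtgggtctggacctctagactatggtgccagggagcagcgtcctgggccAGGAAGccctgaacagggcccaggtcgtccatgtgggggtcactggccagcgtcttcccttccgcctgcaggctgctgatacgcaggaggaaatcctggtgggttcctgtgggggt
Clec4g, chr8:3720652-3720901: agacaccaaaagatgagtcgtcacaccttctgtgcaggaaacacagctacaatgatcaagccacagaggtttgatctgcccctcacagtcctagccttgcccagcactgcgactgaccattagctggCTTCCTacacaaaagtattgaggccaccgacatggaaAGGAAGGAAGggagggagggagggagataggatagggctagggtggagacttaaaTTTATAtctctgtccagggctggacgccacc
In the 250 bases before the RefSeq start, AGGAAG was found in Stab1, Stab2 and Clec4g (3 matches in Clec4g, of which 2 overlap by 2 bases) and not in Wnt2, Wnt9b or Kdr. It was found in 29.5% of the 32851 promoters searched. The match in Stab2 lies 40 to 35 bases before the RefSeq start, within 83 bases that GENCODE places in the gene. Shorter or other forms of the ETS site were not searched, so these matches do not say which promoters lack such a site. CCAAT was found in Wnt2, Wnt9b and Stab1 and in 33.8% of all promoters. The match in Wnt2 lies 74 to 70 bases before the RefSeq start, in a stretch that GENCODE places in the gene and that is not printed. TATAAA was found in Clec4g and in 12.4% of all promoters. The GATA motif AGATAA (9.99% of all promoters) and the AP-1 motif TGANTCA (6.75%) were found in none of the 6. The bases G and C made up 63.6% of the whole 250-base window of Wnt2 and 72.0% of that of Wnt9b, against a median of 52.4% over all promoters. In the sinusoidal genes the share was 61.6% for Kdr, 57.2% for Stab1, 53.2% for Stab2 and 52.0% for Clec4g, so Kdr was close to Wnt2. These matches describe letters and not bound sites.

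Rspo3 (ENSMUSG00000019880, chromosome 10, 29453109 to 29535867, minus strand) encodes R-spondin 3, which strengthens the response of hepatocytes to Wnt ligands. It had 4.35 and 3.65 CPM after APAP, against 8.51, 6.91 and 4.88 CPM after saline. The groups did not overlap, but WT3 lay close to APAP replicate 1. The log2 fold change was −0.75 (standard error 0.35, 95% interval −1.58 to 0.07, adjusted p = 0.238 by edgeR's quasi-likelihood test, Benjamini-Hochberg adjusted). An antisense gene, Gm48159, covers 13.1% of the exon length of Rspo3 on the opposite strand, and reads of the pair cannot be told apart where the counting did not use strand, for which no setting is given in the sources used here.

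Vwf (ENSMUSG00000001930, chromosome 6, 125546774 to 125686679, plus strand) encodes von Willebrand factor, a clotting protein of large-vessel endothelium that platelets also carry. It had 5.70 and 9.02 CPM after APAP, against 4.75, 7.11 and 3.27 CPM after saline. The groups overlapped, and the log2 fold change of 0.54 had a 95% interval of −0.43 to 1.51 (adjusted p = 0.464 from the same test). It was 0.84 without APAP replicate 1, 0.16 without APAP replicate 3, 0.88 without WT2 and 0.31 without WT3. Of 6 platelet and megakaryocyte markers, 3 were tested and 0 passed the test, and their summed level was 5.38 to 7.11 CPM with APAP and 2.86 to 5.61 CPM with saline. The part of platelet RNA in the level of Vwf was not tested.

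**Figure D2:**
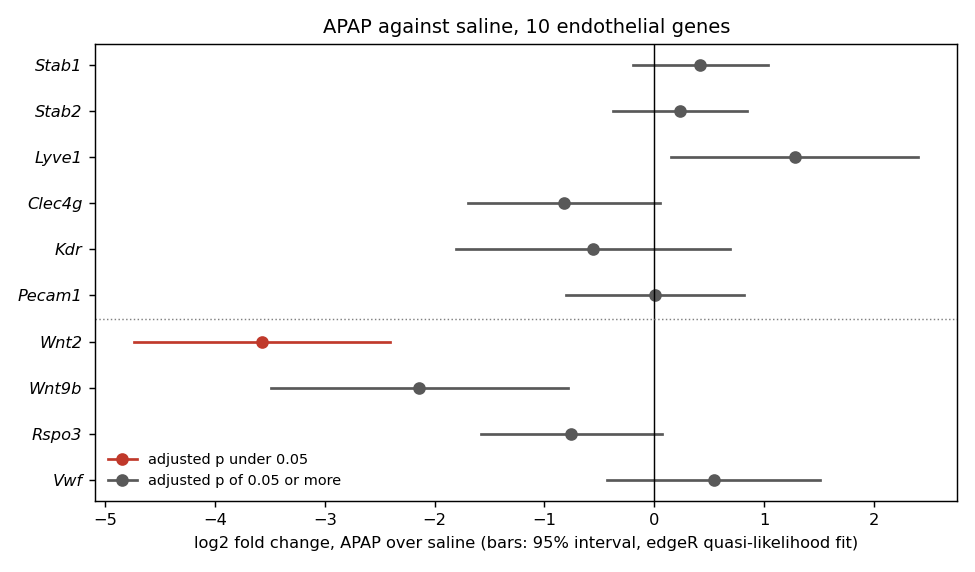
Log2 fold change of APAP over saline for the 10 genes, with 95% intervals from edgeR's quasi-likelihood fit, sinusoidal genes above the dotted line and central vein and Wnt-source genes below it. Wnt2, in red, is the gene with an adjusted p under 0.05, and the intervals of Wnt9b and Lyve1 also leave out 0.

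Bulk RNA cannot tell fewer endothelial cells from less RNA per cell. The Wnt-source genes were also set against general endothelial RNA in the same library. This scale cannot tell fewer central vein endothelial cells from less RNA in each of them, and neither was tested. Per 1000 counts of the 16 endothelial junction and surface genes (Cdh5, Eng, Plvap and others), Wnt2 had 1.79 and 1.48 counts in the APAP libraries and 15.5, 13.4 and 20.1 counts in the saline libraries. The saline mean was 9.97 times the APAP mean. Wnt9b had 2.15 and 1.48 counts on this scale with APAP and 6.78, 7.23 and 5.54 counts with saline, a saline mean of 3.59 times the APAP mean. For Rspo3 the values were 26.5 and 14.6 with APAP and 30.7, 28.9 and 21.3 with saline, so that the groups overlapped. Vwf had 34.8 and 36.0 counts on this scale with APAP and 17.1, 29.8 and 14.3 counts with saline, higher in both APAP libraries. When the fit was scaled to these 16 genes in place of TMM, the log2 fold change of Wnt2 was −3.30 (adjusted p = 0.0151 by edgeR's quasi-likelihood test), and that of Wnt9b was −1.84 (adjusted p = 0.19). The ratio of Rspo3 to Wnt2 counts within a library was 14.8 and 9.83 with APAP and 1.98, 2.17 and 1.06 with saline.

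**Figure D3:**
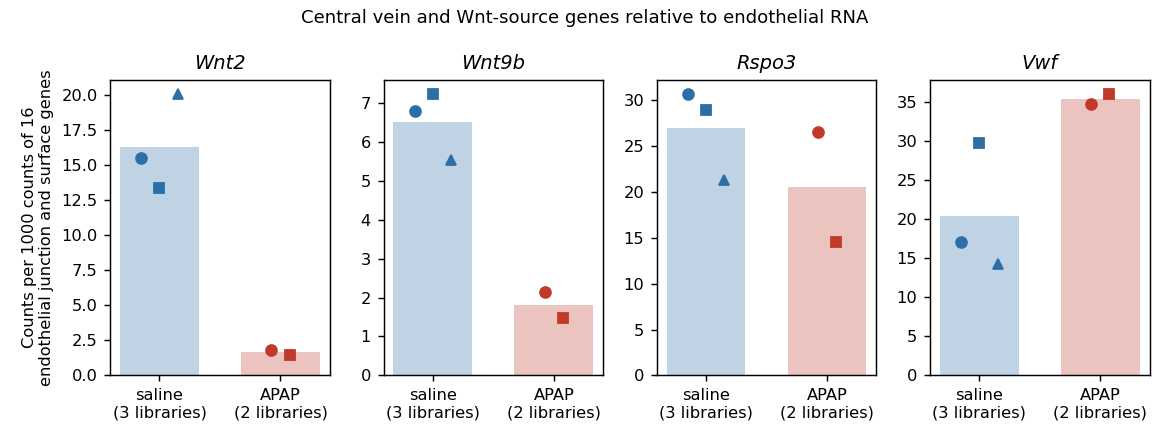
Counts of Wnt2, Wnt9b, Rspo3 and Vwf per 1000 counts of 16 endothelial junction and surface genes in the same library, with bars for group means and points for libraries (circles WT1 and APAP replicate 1, squares WT2 and APAP replicate 3, triangles WT3, the shared symbols pairing no libraries). Wnt2 is below 1.80 in both APAP libraries and above 13.3 in the 3 saline libraries, while Rspo3 overlaps between the groups.

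Stab1 and Stab2 (chromosome 14, 31139013 to 31168641, and chromosome 10, 86841198 to 87008025) encode the stabilins, the large scavenger receptors of sinusoidal endothelium. Stab1 had 50.1 and 41.4 CPM after APAP, against 26.7, 44.0 and 32.0 CPM after saline. Stab2 had 39.3 and 35.0 CPM after APAP, against 29.8, 40.6 and 24.3 CPM after saline. Both genes overlapped between the groups, with log2 fold changes of 0.42 (95% interval −0.20 to 1.03, adjusted p = 0.375) and 0.24 (−0.38 to 0.85, adjusted p = 0.624) by edgeR's quasi-likelihood test. With 1 library left out, Stab1 was between 0.28 without APAP replicate 1 and 0.64 without WT2, and Stab2 between 0.08 without WT3 and 0.46 without WT2.

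Lyve1 (chromosome 7, 110850607 to 110862953) encodes a hyaluronan receptor of sinusoidal and lymphatic endothelium. It had 15.6 and 30.5 CPM after APAP, against 4.84, 8.97 and 14.5 CPM after saline. Both APAP libraries were above all saline libraries, the saline libraries differing among themselves by more than APAP replicate 1 differed from WT3. The log2 fold change of 1.28 (standard error 0.47, 95% interval 0.15 to 2.40) had an unadjusted p of 0.0312 and an adjusted p of 0.156 from the same test. Without APAP replicate 3 its log2 fold change was 0.71 (adjusted p = 0.548). Of 4 lymphatic markers, 3 were tested and 0 passed, with log2 fold changes of 0.03 for Prox1, which hepatocytes also make, −0.06 for Reln and 1.78 for Pdpn (adjusted p = 0.204), and Ccl21a was listed at 0 counts in every library. Lyve1 is also made by some macrophages, and of the 8 Kupffer cell markers 0 passed the test (summed level 221 and 448 CPM with APAP, 229 to 318 CPM with saline). Their median log2 fold change was −0.16, and 3 of the 8 were positive. The highest was Marco, at 2.49 with no overlap between the groups (adjusted p = 0.0625 from the same test). Of the 8 monocyte and macrophage markers 2 were called higher, Ccr2 and Spp1, against a background of 3.70% of all genes tested. Their log2 fold changes were 1.65 and 2.88 (adjusted p = 0.0401 and 0.00183 from the same test). The summed level of the list was 1752 and 2393 CPM with APAP and 1288 to 1727 CPM with saline. The part of these cells in the level of Lyve1 was not tested.

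Clec4g (chromosome 8, 3707064 to 3720651), which encodes the sinusoidal lectin LSECtin, had 15.7 and 32.0 CPM after APAP, against 51.4, 44.8 and 30.3 CPM after saline. APAP replicate 3 lay within the saline range and APAP replicate 1 below it. Its log2 fold change was −0.82 (95% interval −1.70 to 0.05, adjusted p = 0.226 from the same test), with −0.39 when APAP replicate 1 and −1.44 when APAP replicate 3 was left out. The ratio of Lyve1 to Clec4g counts within a library was 0.993 and 0.952 with APAP and 0.0942, 0.2 and 0.478 with saline, with no overlap between the groups. Lyve1 made up 10.8% and 15.8% of the counts of the 6 sinusoidal genes with APAP and 2.85%, 4.61% and 10.9% with saline, and Clec4g 10.8% and 16.6% against 30.2%, 23.0% and 22.9%.

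Kdr (chromosome 5, 75932827 to 75978458) encodes VEGFR2, the main VEGF receptor of endothelium, and had 12.8 and 27.8 CPM after APAP, against 38.4, 38.0 and 13.2 CPM after saline. WT3 lay close to APAP replicate 1 and the other saline libraries above both APAP libraries. Its log2 fold change of −0.55 had a wide 95% interval of −1.80 to 0.69 (adjusted p = 0.566 by edgeR's quasi-likelihood test). It was −0.10 without APAP replicate 1, −1.23 without APAP replicate 3, −0.33 without WT1, −0.34 without WT2 and −0.91 without WT3. Pecam1 (chromosome 11, 106654217 to 106750628) encodes the junction protein CD31, which leukocytes and platelets carry as well. It had 11.3 and 25.8 CPM after APAP, against 18.9, 18.2 and 18.2 CPM after saline, so that the saline libraries lay between the APAP libraries. Its log2 fold change was 0.01 (−0.81 to 0.82, adjusted p = 0.993), with −0.72 without APAP replicate 3 and 0.49 without APAP replicate 1. Of the 8 neutrophil markers, 5 were tested and 5 were called higher, against a background of 3.70% of all genes tested. Their summed level was 108 and 71.2 CPM with APAP and 4.03 to 7.75 CPM with saline, with Ly6g at 0 counts in the 3 saline libraries. The part of leukocyte RNA in the level of Pecam1 was not tested.

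Several of these genes also differed within the groups. Lyve1, Clec4g, Kdr and Pecam1 were lower in APAP replicate 1 than in APAP replicate 3, as were 13 of the 16 endothelial junction and surface genes, while Stab1, Stab2 and Rspo3 were higher in replicate 1. Within the saline group, WT3 was the lowest library for Stab2, Clec4g, Kdr, Wnt9b, Rspo3 and Vwf and the highest for Lyve1 and Wnt2.

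Levels were compared between genes as CPM per kilobase of merged exons (GENCODE M21). In the saline libraries Clec4g was the highest of the 10, at 20.9, 18.2 and 12.3 CPM per kilobase. Stab2, Stab1, Kdr, Lyve1 and Pecam1 followed, with saline means of 3.60, 3.33, 3.30, 3.23 and 2.96 CPM per kilobase and ranges that overlapped each other. Rspo3 and Wnt2 had saline means of 2.19 and 1.79 CPM per kilobase, also with overlapping ranges, and Wnt9b and Vwf had 0.36 and 0.314 CPM per kilobase. With APAP, Clec4g and Lyve1 were the highest, at means of 9.69 and 7.89 CPM per kilobase, and Wnt2 and Wnt9b the lowest, at 0.147 and 0.0801 CPM per kilobase. Per length of the longest coding transcript, Pecam1 was second in the saline libraries in place of the sixth.

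Other endothelial genes were read from lists of known markers and pathway genes. The most abundant gene of a list is the one with the highest mean CPM over all 5 libraries, and where another gene led in the saline libraries alone it is named too. Of 10 sinusoidal scavenger and clearance genes, 9 were tested and 0 passed the test, with a median log2 fold change of −0.54. The most abundant, Ehd3, an endocytic trafficking gene, had 28.8 and 37.5 CPM after APAP, against 74.7, 59.9 and 53.0 CPM after saline (log2 fold change −0.91, adjusted p = 0.0727 by edgeR's quasi-likelihood test). Of the 16 junction and surface genes 0 passed the test (median −0.25), and neither did any of the 13 endothelial transcription factors (median −0.16) or of the 7 VEGF and angiopoietin receptors (median −0.11). Plvap, the diaphragm protein of endothelial pores and the most abundant of the junction and surface list, had 33.0 and 42.4 CPM after APAP, against 54.1, 29.7 and 42.2 CPM after saline. In saline alone Eng led that list, at a mean of 46.1 CPM against 30.7 CPM after APAP, with no overlap (log2 fold change −0.58, adjusted p = 0.230). Maf, the most abundant of the transcription factors, was at 29.8 and 30.4 CPM against 43.0, 40.7 and 32.6 CPM, and Nrp1, a co-receptor for VEGF, at 129.7 and 95.3 CPM against 95.7, 50.3 and 50.9 CPM. The 12 venous and arterial large vessel genes had a median of 0.65, 9 of the 12 had a positive log2 fold change, and 0 passed the test. Ephb4, the most abundant of them and a receptor that marks veins, had 29.0 and 26.3 CPM after APAP, against 22.5, 23.0 and 19.4 CPM after saline. In saline alone Ltbp4 led, at a mean of 22.8 CPM against 15.3 CPM after APAP (log2 fold change −0.57, adjusted p = 0.263).

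Over the 8 wider endothelial lists together, 3 of 73 tested genes (4.11%) were called higher, a share near the background of 3.70%, and 0 were called lower. Angpt2, the angiopoietin that endothelial cells release when vessels are remodelled, rose from 0.717, 0.199 and 0.468 CPM in the saline libraries to 13.7 and 18.0 CPM in the APAP libraries, a difference of 5.12 on the log2 scale (standard error 0.47, edgeR quasi-likelihood adjusted p = 0.00367). In WT1, WT2 and WT3 it had 8, 3 and 7 counts, at or near the floor of 3 counts. Such counts limit the precision of its fold change. Angpt2 was 1 of 5 tested VEGF and angiopoietin ligands to pass the test. The most abundant gene of that list, Vegfa, was at 160 and 106 CPM against 52.0, 128 and 113 CPM. Procr, the endothelial protein C receptor, had 7.58 and 8.65 CPM after APAP, against 1.43, 0.797 and 1.27 CPM after saline (log2 fold change 2.799, adjusted p = 0.0104), the 1 gene of 5 tested activation genes to pass. Procr was not called without APAP replicate 1, APAP replicate 3 or WT2 (adjusted p = 0.0527, 0.0536 and 0.0558). Vcam1, the most abundant activation gene, was at 25.6 and 31.2 CPM against 12.9, 13.8 and 22.2 CPM (adjusted p = 0.146). In saline alone Ednrb led, at a mean of 23.2 CPM against 17.6 CPM after APAP (log2 fold change −0.40, adjusted p = 0.423). Of the 6 angiocrine genes, which endothelial cells use to signal to their neighbours, Ctgf passed, at 39.2 and 56.9 CPM against 7.62, 14.6 and 15.2 CPM (log2 fold change 1.94, adjusted p = 0.0233). Ctgf was not called without the same 3 libraries (adjusted p = 0.0643, 0.0936 and 0.0878). Other liver cells make Ctgf as well. Of 8 stellate cell markers 0 passed the test (summed level 301 and 388 CPM after APAP, 359 to 433 CPM after saline), and of 4 tested cholangiocyte markers 1 was called higher (70.7 and 42.5 CPM, against 6.99 to 10.3 CPM). The part of these cells in the level of Ctgf was not tested. The BMP ligands Bmp2 and Bmp6, by which sinusoidal endothelium controls hepcidin in hepatocytes, did not overlap between the groups, with APAP below saline, and did not pass the test (log2 fold change −0.89 and −1.77, adjusted p = 0.126 and 0.124). In saline alone Bmp2 led the angiocrine list, at a mean of 18.9 CPM against 10.2 CPM after APAP.

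The remaining members of the Wnt pathway were read in the order of its steps. Of the 20 other Wnt and R-spondin ligands, 4 were tested and 0 passed. The most abundant, Wnt4, had 4.58 and 2.97 CPM after APAP, against 4.03, 1.99 and 1.60 CPM after saline. In saline alone Wnt5b led, at a mean of 2.65 CPM against 3.54 CPM after APAP (log2 fold change 0.43, adjusted p = 0.683). Of 22 genes of Wnt secretion, receptors and surface regulators, 16 were tested, 0 were called higher and 1, the R-spondin receptor Lgr5, was called lower. The background was 3.70% higher and 3.53% lower of all genes tested. Lgr5 is also in the list of Wnt target genes below. The most abundant receptor, Lrp6, had 136 and 134 CPM after APAP, against 95.2, 87.8 and 115 CPM after saline (adjusted p = 0.259). In saline alone Lrp5 led, at a mean of 103 CPM against 78.8 CPM after APAP (log2 fold change −0.39, adjusted p = 0.385). Of 10 secreted Wnt inhibitors, 3 were tested and 0 passed, and the most abundant, Notum, was at 2.06 and 15.02 CPM against 37.6, 28.0 and 29.1 CPM (adjusted p = 0.162).

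Of 16 Wnt target genes of centrilobular hepatocytes, 15 were tested, 7 (46.7%) were called lower and 0 higher, against a background of 3.53% lower and 3.70% higher, and the median of their log2 fold changes was −1.89, that of all tested genes being 0.03. The list was chosen with earlier results of these data known, so its share describes these genes and is no test of enrichment. Slc1a2, a glutamate transporter, had 0.764 and 1.92 CPM after APAP, against 260.0, 283 and 472 CPM after saline. Lgr5 was at 0.118 and 0.371 CPM against 12.5, 6.51 and 3.14 CPM. It had 2 and 6 counts in APAP replicates 1 and 3, and 2 counts lie under the floor of 3 counts. Rhbg, an ammonium transporter, was at 0.705 and 0.247 CPM against 14.3, 12.4 and 9.35 CPM, with 12 and 4 counts in APAP replicates 1 and 3. Oat, the ornithine aminotransferase, was at 21.5 and 73.6 CPM against 1077, 1180 and 978 CPM. The most abundant target, Cyp2e1, the main enzyme that activates APAP, was at 783 and 1593 CPM against 8353, 5265 and 4363 CPM (log2 fold change −2.34, adjusted p = 0.0418), and Glul and Cyp1a2 were also called lower, with log2 fold changes of −3.74 and −2.88. Cyp2e1 was not called when any 1 of the 5 libraries was left out (adjusted p 0.0554 to 0.205), Cyp1a2 was not called without APAP replicate 1 or WT2 (0.118 and 0.0798), and Oat was not called without WT2 (0.0547). Lgr5 was not called without APAP replicate 1, APAP replicate 3 or WT2 (adjusted p = 0.136, 0.0651 and 0.0831). The general Wnt feedback gene Axin2, which many cell types use, had 7.58 and 5.07 CPM after APAP, against 11.7, 9.83 and 15.97 CPM after saline, with no overlap, and did not pass the test (log2 fold change −0.98, adjusted p = 0.124). Beside these genes, 1 of 10 general hepatocyte markers was called lower (Apoa2), and their median log2 fold change was −0.80. At a 1.5-fold change with unadjusted P under 0.05, 5 of the 10 were lower and 0 higher, against a background of 11.2% lower. Their summed level was 83176 and 128279 CPM with APAP and 135352 to 189478 CPM with saline. The part of hepatocyte RNA in the fall of the target genes was not tested. Sex-linked expression and treatment cannot be told apart in that fall.

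**Figure D4:**
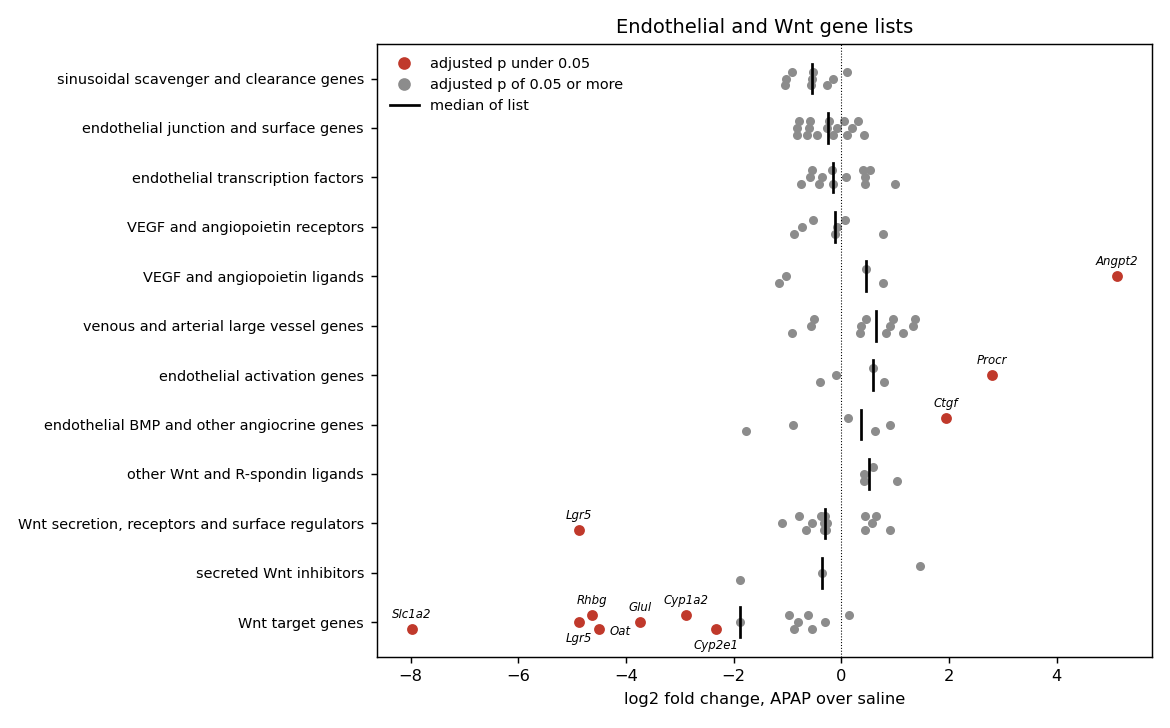
Log2 fold change of APAP over saline for each tested gene of 12 endothelial and Wnt gene lists, with red points for genes with an adjusted p under 0.05 and a black bar for the median of each list. Red points are Angpt2, Procr and Ctgf on the right and Lgr5 and the Wnt target genes on the left, and the sinusoidal, junction, transcription factor and receptor lists of endothelium hold none.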

How the data were processed

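Liver RNA-Seq counts of 5 libraries (2 of APAP and 3 of saline livers) were analysed. Per the labels, libraries were made from total RNA with a SMARTER mRNA-Seq kit, and the submitters' processing notes name the builds GRCm38 and mm10. The authors sequenced on a NovaSeq platform and obtained read counts with HISAT2. The deposited counts are whole numbers for each gene and were not normalized. The HISAT2 version and the strand setting are not given in the sources used here. The table also holds 5 columns of FPKM, which were not used.

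Tests were run with edgeR 4.0.16 under R 4.3.3. The filter filterByExpr, with a minimum count of 10 and a minimum total of 15, passed 13734 genes. TMM factors lay between 0.783 and 1.27. The groups were compared by the quasi-likelihood test with Benjamini-Hochberg adjustment over all tested genes. Intervals of fold changes are at 95%. Alternatives were other tests, DESeq2 1.42.0, other scalings and filters, each library left out in turn and, added after seeing the data, a scaling to 16 endothelial genes. The method was tested on simulated counts. Changes were simulated only in genes with higher mean counts than Wnt2 and Wnt9b, so the simulation does not cover genes at their level. No pair of libraries of 1 group agreed within sampling noise (the chi-square divided by its degrees of freedom was 46.7 to 99.8).

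The members and gene lists were chosen with earlier results of these data known. All 10 members are named, and from each other endothelial or Wnt list up to 4 called genes with the largest fold change and the most abundant gene. In the Wnt target list the called genes Glul and Cyp1a2 are named as well. Bmp2, Bmp6, Axin2, Pdpn, Prox1, Reln, Marco and the genes that led a list in saline alone were named after their values were seen. Where a symbol was listed more than once, the row with more counts was used. Coordinates are those of the deposited table (GRCm38), and 34267 of its 34745 gene identifiers were found in GENCODE M21. None of the 50-base words of the longest coding transcripts of the 10 genes occurs in transcripts of another gene (0%). Exons of Stab1, Stab2 and Clec4g overlap genes on the opposite strand over 1.09%, 1.61% and 5.93% of their length. Python 3.11.15 was used for annotation, promoters and plots.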

Additional observations from a re-analysis of the deposited data

How the results depend on the processing

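With 2 and 3 libraries, calls depended on the test and on single libraries, and directions did so less. Of the 275 values of named genes under the alternatives, 248 kept their direction and their side of the threshold, 19 lost the call, 3 gained it and 5 changed sign. The 5 were all of Pecam1, which was not called in any of them. It was at −0.0282 with DESeq2 and with RLE size factors, at −0.72, −0.00262 and −0.00384 without APAP replicate 3, WT2 and WT3, and at 0.49 without APAP replicate 1. Wnt2 stayed between −3.75 and −3.18 on the log2 scale under 13 alternatives, 11 of which called it (adjusted p 3.71e-07 to 0.0831), and it could not be fitted with at least 10 counts in every library, where 0 of the 10 genes were called. The 10 genes included 2 called genes, Wnt2 and Wnt9b, with the likelihood ratio test, the exact test and DESeq2, 3 at a 1.5-fold change with unadjusted P under 0.05, and 0 to 1 when 1 library was left out, with 0 without APAP replicate 1 or WT2. Of the wider endothelial and Wnt lists, 10 genes were called, 19 with DESeq2 and 4 to 11 when 1 saline library was left out, with 4 without WT2. Of these 10 genes, 3 were among the 73 tested genes of the endothelial lists (4.11%). The other 7 were among the 15 tested Wnt target genes (46.7%), a list chosen with earlier results known. The background was 7.23% of all genes tested. Over all genes, the 993 calls became 1835 with the likelihood ratio test, 1776 with the exact test, 2093 with DESeq2, 3228 at that threshold and 165 to 922 when 1 library was left out, with 235 without APAP replicate 1, 401 without APAP replicate 3, 510 without WT1 and 165 without WT2. The share of higher genes among the calls was 51.2% with TMM, 77.8% with library size only and 69.7% with the endothelial scaling, whose medians over all genes were 0.42 and 0.34 on the log2 scale against 0.03 with TMM. The causes of these differences between tests were not tested. No paired analysis was possible because no source ties the numbers of the WT columns to the numbered saline samples, or says that a number marks a shared batch or litter. A count under 10 limits the precision of a fold change at this depth. Such counts include those of Wnt2, Wnt9b and Lgr5 with APAP, of Rhbg in APAP replicate 3 and of Angpt2 with saline.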
